A study of Mus musculus with 12 samples.

Results

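The genes described here are the cyclins and cyclin-dependent kinases (CDKs) that act in the G1 phase of the cell cycle, measured in the aorta of mice with or without a challenge that causes aortic dissection (AD). They comprise the D-type cyclins Ccnd1, Ccnd2 and Ccnd3, the E-type cyclins Ccne1 and Ccne2, and the kinases Cdk2, Cdk4 and Cdk6. Their members were taken as every non-control probe that carries one of these 8 gene names, which gave 12 of the 55681 probes on the array. Of these, 9 probes for 6 genes were bright enough to be tested, among 27801 tested probes in all.

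D-type cyclins are made when a cell receives growth signals, and they bind Cdk4 or Cdk6. These kinases phosphorylate the retinoblastoma protein, which then lets go of the E2F transcription factors. E2F raises the transcription of the E-type cyclins and of the genes for DNA synthesis, and cyclin E with Cdk2 carries the cell into S phase. In the aorta of a healthy adult mouse, smooth muscle cells divide rarely. The kinase mTOR, the target of rapamycin, is one of the routes by which growth signals promote the translation of D-type cyclins.

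RNA from 12 samples of C57BL/6J mouse aorta was hybridised to 1-colour Agilent arrays, with 3 samples in each of 4 groups, all at day 3. The mice were male and 11 to 14 weeks old according to the methods. The DMSO group had the vehicle dimethylsulfoxide alone, although the titles of its samples begin with a word for a state before treatment, and the rapamycin group had rapamycin at 2 mg/kg/day. In the BA+DMSO group, the mice had the vehicle, angiotensin II (AngII, 1 µg/kg/min) and BAPN at 150 mg/kg/day. BAPN is beta-aminopropionitrile, an inhibitor of the enzyme that crosslinks elastin and collagen. The BA+rapamycin group had the same BAPN + AngII challenge with rapamycin in place of the vehicle alone. No group carried a genetic change. The samples are pieces of whole aortic tissue, so fewer cells that make a transcript and less transcript per cell cannot be told apart.

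Values are log2 signals relative to the 75th percentile of the same array, and a level of 0 means a signal equal to that percentile. The level of one probe was not set against that of another as an amount of RNA, because probes differ in how well they bind. A difference was called where the adjusted p of the limma fit over all 27801 probes was under 0.05. The DMSO samples lay on 1 slide with 1 rapamycin sample, and the other 8 samples lay on a second slide. The 75th percentile of the signal ranged from 74.6 to 246 units on arrays of the challenged groups and from 221 to 337 units on the others. The BA+DMSO samples were the least alike, with correlations over the tested probes of 0.953 between samples 1 and 2, 0.961 between 1 and 3 and 0.912 between 2 and 3, against 0.974 or above within the other groups. The array weights that limma estimates were lowest for these 3 arrays, at 0.0028, 0.171 and 0.354 for samples 1, 2 and 3. Sample 2 was the dimmest of its group, at 78.1 units, and BA+rapamycin sample 2 was dimmer, at 74.6 units. Leaving out BA+DMSO sample 1, 2 or 3 gave 3105, 7555 or 10574 calls over all probes for BA+DMSO against DMSO, where all 12 arrays gave 5697. The labelled tissue was checked with 7 smooth muscle markers, including Acta2 and Myh11, and all were well above background on all 12 arrays.

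The probe for Ccnd2, the member that fell with challenge in both backgrounds, is shown by sequence. So is a probe for Cdk4, the kinase of D-type cyclins that the array detects. The Cdk4 levels given below are those of another probe, A_55_P2163143, the brightest for this gene. Each is a 60-mer printed 5′ to 3′ in lower case with the bases that the scanner files give. The Ccnd2 probe lies at chr6:127098696-127098755 on the minus strand of mouse build mm9, and the Cdk4 probe at chr10:126503162-126503221 on the plus strand.
Ccnd2 A_52_P53906: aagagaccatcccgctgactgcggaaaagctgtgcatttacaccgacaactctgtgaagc
Cdk4 A_55_P2166639: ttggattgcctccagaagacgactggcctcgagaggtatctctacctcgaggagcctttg

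The Ccnd1 probe lies at chr7:152116202-152116261 on the minus strand, and the Cdk2 probe at chr10:128135658-128135717 on the minus strand. The brighter Ccne1 probe has only 24 of its 60 bases placed on mm9 in the files, at chr7:38882937-38882960. Cdk4 is covered by 3 probes within its gene on chromosome 10, and both Ccnd3 probes lie on chromosome 17.

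Where transcription of 3 of the members starts was looked at in RefSeq promoters of build GRCm38.p6, using the 250 bases before the start. Ccne1 is shown because it had the largest difference among the members, and Cdk2 and Cdk4 as the kinases that the array detects. Promoter windows were at hand for 5 of the 8 genes, with 2 starts for Ccnd3, and not for Ccnd1, Ccnd2 and Ccne2. Capitals mark GC boxes in Ccne1, an E2F word in Cdk2 and E-boxes in Cdk4.
Ccne1, chr7:38107491-38107740, minus strand: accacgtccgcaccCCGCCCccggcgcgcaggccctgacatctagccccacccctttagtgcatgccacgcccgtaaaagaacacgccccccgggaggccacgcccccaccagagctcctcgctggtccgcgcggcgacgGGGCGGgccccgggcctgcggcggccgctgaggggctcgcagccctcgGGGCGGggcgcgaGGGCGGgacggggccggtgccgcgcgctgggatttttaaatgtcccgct
Cdk2, chr10:128705052-128705301, minus strand: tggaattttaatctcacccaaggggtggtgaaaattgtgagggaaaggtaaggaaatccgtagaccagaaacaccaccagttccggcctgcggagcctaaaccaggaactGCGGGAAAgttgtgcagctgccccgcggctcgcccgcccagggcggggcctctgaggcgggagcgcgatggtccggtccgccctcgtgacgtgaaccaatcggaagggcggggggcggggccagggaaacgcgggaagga
Cdk4, chr10:127063285-127063534, plus strand: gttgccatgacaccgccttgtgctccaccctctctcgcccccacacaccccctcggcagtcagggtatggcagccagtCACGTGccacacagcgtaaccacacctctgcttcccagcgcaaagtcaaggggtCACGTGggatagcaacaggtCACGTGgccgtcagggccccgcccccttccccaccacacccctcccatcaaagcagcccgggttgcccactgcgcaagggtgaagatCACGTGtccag

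The GC box was searched as GGGCGG, the E-box of the Myc and Max type as CACGTG, and the E2F word as TTTCCCGC, TTTCGCGC, TTTGCCGC or TTTGGCGC, all on both strands. Ccne1 held 4 GC boxes, and 32.7% of all 32851 promoter windows of this length held at least 1. Cdk2 held 5 GC boxes and Cdk4 held 1, left in lower case here, so the word does not set Ccne1 apart from them. The Ccnd3 windows held 2 and 1, and the Cdk6 window held none. Cdk4 held 4 E-boxes, at 172, 118, 98 and 11 bases before the start, where 6.02% of all windows held any, and Cdk6 held 1. Cdk2 held 1 E2F word, which 1.86% of all windows held, and neither Ccne1 nor Cdk4 held these E2F letters in this window. The words TGACGTCA (CRE), TGACTCA or TGAGTCA (AP-1) and CCAAT were also searched. No member window held a CRE or AP-1 word. Cdk2 and 1 of the Ccnd3 windows held 1 CCAAT each, where 33.8% of all windows held any. A match describes the letters and not binding.

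**Figure D1:**
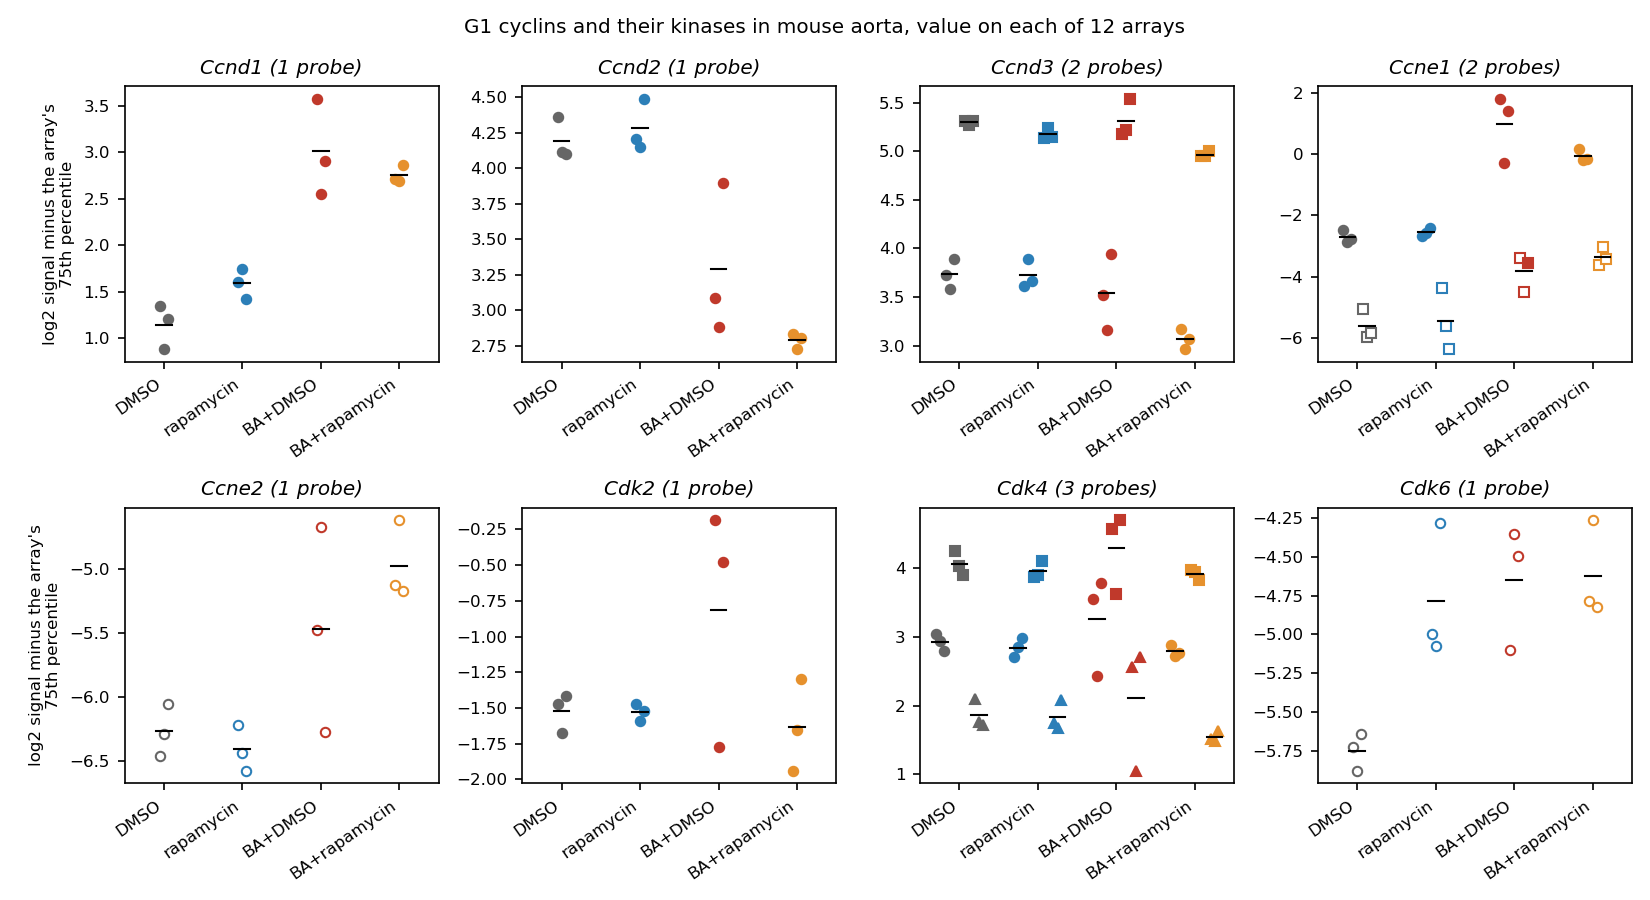
Log2 signal relative to the 75th percentile of the array (vertical axis) for the 8 genes on each of 12 arrays, by group. Each probe has a marker shape and each group mean a bar. Open symbols mark where the probe was not well above background. Ccnd1 and the upper Ccne1 probe were higher in every challenged sample than in every unchallenged one, and Ccnd2 was lower.

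Which G1 genes changed after 3 days of challenge was asked first, by comparing BA+DMSO with DMSO. Ccnd1 and Ccne1 rose and Ccnd2 fell, while Ccnd3, Cdk2 and Cdk4 did not pass the test. The calls were thus 2 higher and 1 lower of 9 member probes, where 9.65% of all tested probes were called higher and 10.8% lower. Of the 9, 2 lay higher in every BA+DMSO sample than in every DMSO sample and 1 lay lower, where 14.4% of all tested probes lay wholly higher and 20.1% wholly lower. The median log2 difference was 0.25 over the 9 member probes and -0.04 over all tested probes.

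Ccnd1, the D-type cyclin most closely tied to growth factor signalling, had levels of 1.34, 0.88 and 1.21 in the DMSO samples. In the BA+DMSO samples its levels were 3.58, 2.56 and 2.91, so the groups did not overlap. The difference was 1.88 on the log2 scale (SE 0.25, n = 3 per group), a 3.67-fold rise (95% confidence interval 2.52 to 5.34), with an adjusted p of 0.000906 in limma. Each BA+DMSO sample lay above each DMSO sample by more than the range of the DMSO group.

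Ccnd2, a D-type cyclin that is used by many cell types beside or in place of Ccnd1, went the other way. Its levels were 4.36, 4.11 and 4.10 in DMSO and 3.09, 2.88 and 3.90 in BA+DMSO. The fall was 1.87-fold (log2 difference -0.90, SE 0.24, n = 3 per group, limma adjusted p = 0.0245). BA+DMSO sample 3 was the closest to the DMSO group. With DMSO sample 1, 2 or 3 or BA+DMSO sample 1 left out, Ccnd2 was no longer called, and the log2 difference without BA+DMSO sample 1 was -0.80 (adjusted p = 0.0851).

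Ccnd3, the third D-type cyclin, had levels within 5.27 to 5.31 in DMSO and 5.18 to 5.54 in BA+DMSO by its brighter probe. Its log2 difference was 0.01 by that probe (95% interval -0.31 to 0.34, limma adjusted p = 0.958) and -0.19 by the other (95% interval -0.64 to 0.26, adjusted p = 0.533). The groups overlapped for both probes.

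Ccne1, the cyclin that activates Cdk2 at the entry into S phase, showed the largest difference of the members tested. Its levels by the tested probe were -2.49, -2.86 and -2.77 in DMSO, and 1.81, -0.31 and 1.40 in BA+DMSO. The rise was 12.8-fold (95% interval 6.69 to 24.4), a log2 difference of 3.67 (SE 0.42, n = 3 per group, limma adjusted p = 0.000528). BA+DMSO sample 2 was the lowest of its group and still above every DMSO sample. The size of the Ccne1 rise moved by over 1.5 times with 3 settings, while the call held: the log2 difference was 4.31 without BA+DMSO sample 2, 4.47 with array brightness as a covariate and 2.38 with normexp background correction.

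The other Ccne1 probe was well above background on 1 of 12 arrays, BA+DMSO sample 3, and was not tested. Its unscaled signal was 20.8 units on that array and 3.47 to 12.7 units on the other 11, so no direction is drawn from it. Ccne2, the other E-type cyclin, and Cdk6, the partner kinase of D-type cyclins beside Cdk4, were not well above background on any of the 12 arrays. Their unscaled signals ranged from 2.96 to 3.53 units for Ccne2 and from 3.80 to 17.4 units for Cdk6. The scaled level of Ccne2, whose signal hardly varied, follows the 75th percentile of the array. That of Cdk6 does not simply follow it, at -5.88 to -5.64 in DMSO and -5.07 to -4.28 in rapamycin. No difference between groups is read from signals this low for these probes. No fold is given for them, and they are dim on this array rather than shown to be absent from the tissue.

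Cdk4, the kinase of D-type cyclins that this array does detect, spread widely within the challenged group. Its brightest probe gave 4.24, 4.02 and 3.90 in DMSO and 4.57, 3.63 and 4.70 in BA+DMSO. BA+DMSO samples 1 and 3 lay above and sample 2 below the whole DMSO group. The log2 differences of the 3 Cdk4 probes were 0.33, 0.24 and 0.25, with limma adjusted p values of 0.446, 0.527 and 0.656.

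Cdk2, the kinase of cyclin E, had the same split. It stood at -1.47, -1.67 and -1.42 in DMSO and at -0.18, -1.77 and -0.47 in BA+DMSO. The log2 difference was 0.71 (95% interval -0.05 to 1.47, limma adjusted p = 0.166). With normexp background correction, Cdk2 was called, at 0.67 (adjusted p = 0.0125).

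Without BA+DMSO sample 2, Cdk2 and all 3 Cdk4 probes were called higher as well. The calls then were 6 higher and 1 lower of 9 member probes, where 13.6% of all tested probes were called higher and 13.6% lower. Cdk2 differed by 1.19 on the log2 scale (adjusted p = 0.00241), and the Cdk4 probes by 0.58 to 0.78 (adjusted p = 0.00529 to 0.0170). Leaving out BA+DMSO sample 1 or 3 called none of these 4 probes, and without sample 3 the Cdk4 probe A_55_P2166639 turned to -0.05 (adjusted p = 0.921). This sample was set aside after its values had been seen, and its part in the result was not tested further.

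The slide limits this comparison, since no slide holds both DMSO and BA+DMSO samples and only the rapamycin group spans both. Title dates limit it too: BA+DMSO sample 1 shares none with a DMSO sample, and samples 2 and 3 carry none. With slide as a block, Ccne1 differed by 3.50 on the log2 scale (adjusted p = 0.173), Ccnd1 by 1.90 (adjusted p = 0.197) and Ccnd2 by -1.01 (adjusted p = 0.466), and 15 of all 27801 probes were called. When array brightness was a covariate, 6 probes of 4 genes (Ccnd1, Ccne1, Cdk2 and 3 for Cdk4) were called higher and none lower, where 11.2% of all tested probes were called higher and 7.09% lower. Ccnd2 then differed by -0.38 (adjusted p = 0.139). With estimated array weights, Ccnd1 (1.72, adjusted p = 0.110) and Ccnd2 (-0.61, adjusted p = 0.565) were not called and Ccne1 was, where 112 of all 27801 probes were called.

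**Figure D2:**
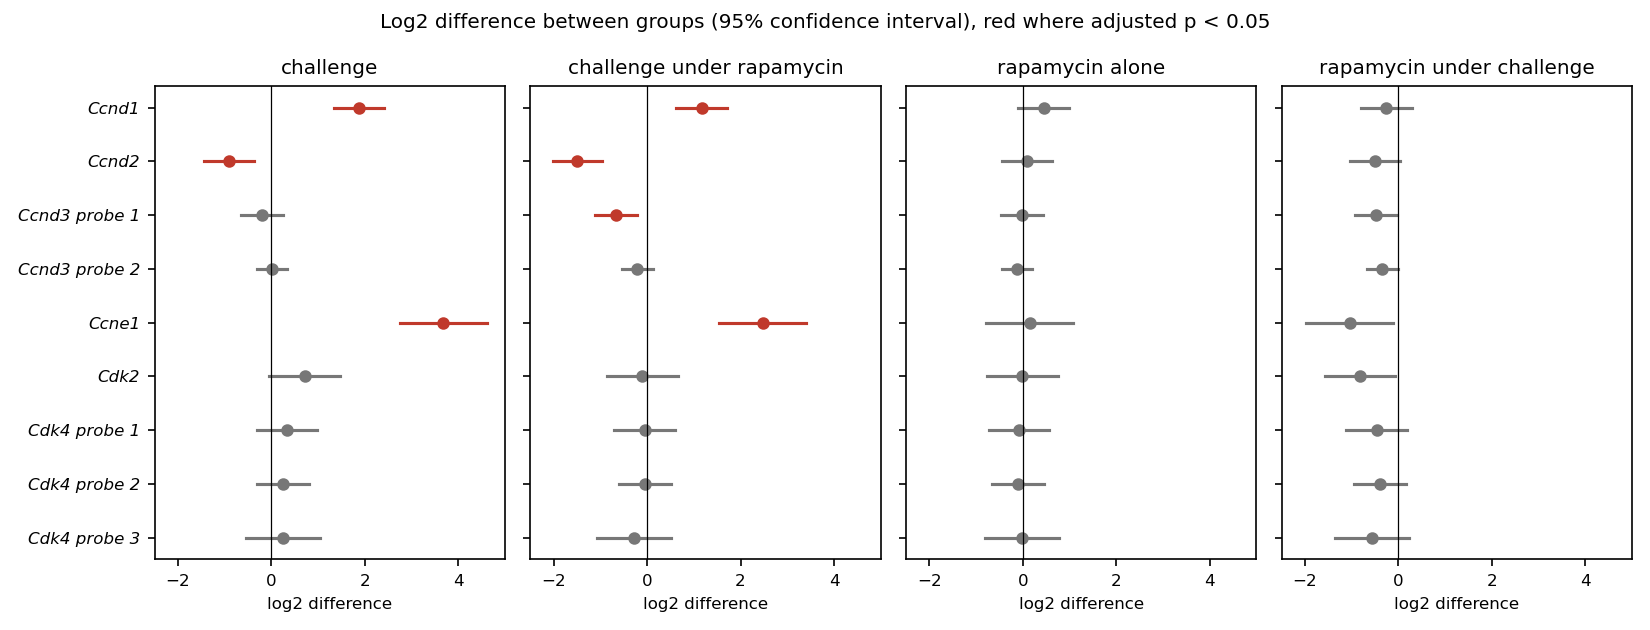
Log2 difference between groups (horizontal axis) with its 95% confidence interval for the 9 tested member probes in 4 comparisons, red where the adjusted p is under 0.05. Ccnd1 and Ccne1 lie to the right and Ccnd2 to the left in both comparisons of challenged with unchallenged samples, and no member is red in either comparison of rapamycin with vehicle.

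The challenge was also compared in rapamycin-treated mice, BA+rapamycin against rapamycin, with no sample shared with the comparison above. No BA+rapamycin sample shares a title date with a rapamycin sample, so title date and challenge cannot be told apart here. Ccnd1 and Ccne1 rose and Ccnd2 fell here too, and Ccnd3 fell by 1 of its 2 probes. The calls were 2 higher and 2 lower of 9, where 18.9% of all tested probes were called higher and 22.9% lower.

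Ccnd1 stood at 1.61, 1.74 and 1.42 in rapamycin and at 2.71, 2.70 and 2.86 in BA+rapamycin. This is a 2.25-fold rise (95% interval 1.54 to 3.27, limma adjusted p = 0.00506). Ccne1 stood at -2.67, -2.57 and -2.42 in rapamycin and at 0.15, -0.21 and -0.17 in BA+rapamycin, a 5.57-fold rise (95% interval 2.92 to 10.6, limma adjusted p = 0.00198). Neither gene's groups overlapped.

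Ccnd2 levels were 4.21, 4.15 and 4.49 in rapamycin and 2.83, 2.73 and 2.81 in BA+rapamycin. The fall was 2.82-fold (log2 difference -1.49, SE 0.24, limma adjusted p = 0.00152), and the groups did not overlap. The dimmer Ccnd3 probe fell by 0.66 on the log2 scale (limma adjusted p = 0.0257), and the brighter one differed by -0.21 (adjusted p = 0.269). The Ccnd3 call was lost when any rapamycin sample, or BA+rapamycin sample 2 or 3, was left out.

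Of the 9 member probes, 2 lay higher in every BA+rapamycin sample than in every rapamycin sample and 4 lay lower, while 29.8% of all tested probes lay wholly higher and 36.1% wholly lower. Cdk2 differed by -0.10 on the log2 scale and the Cdk4 probes by -0.04 to -0.29, with adjusted p values of 0.530 and above. On the second slide alone, which holds 2 rapamycin samples, Ccne1 differed by 2.42 (adjusted p = 0.0351), Ccnd2 by -1.53 (adjusted p = 0.0310) and Ccnd1 by 1.18 (adjusted p = 0.0519). The challenge call on Ccnd1 thus was not made within that slide. With array brightness as a covariate, Ccnd2 differed by -0.58 (adjusted p = 0.163) and Ccnd1 by 1.37 (adjusted p = 0.0863), so that neither was called. Ccne1, at 3.87 (adjusted p = 0.0122), was then the 1 member called, where 4.62% of all tested probes were called higher and 1.80% lower. Cdk2 and the Cdk4 probes turned direction with that covariate, to 0.83 for Cdk2 (adjusted p = 0.366) and 0.84 to 1.10 for Cdk4 (adjusted p = 0.0543 to 0.121). With normexp, Ccne1 differed by 1.55 (adjusted p = 0.00216).

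The D-type cyclins were also compared with each other within arrays. The difference between the Ccnd1 and Ccnd2 probes was -3.02, -3.23 and -2.89 in DMSO and -2.60, -2.40 and -3.08 in rapamycin, on the log2 scale. It was 0.49, -0.32 and -0.99 in BA+DMSO and -0.12, -0.03 and 0.05 in BA+rapamycin. The shift with challenge was 2.78 in vehicle mice and 2.66 in rapamycin-treated mice, and the groups did not overlap. The exact two-sided permutation test gave p = 0.1 for each, which is the smallest p that 3 against 3 samples allow, so this design cannot pass 0.05. Adjusted over the 3 pairs compared, p stayed at 0.1.

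Ccnd1 shifted against Ccnd3 by 1.86 with challenge in vehicle mice and by 1.38 in rapamycin-treated mice, and Ccnd2 against Ccnd3 by -0.92 and -1.29, each with an exact permutation p of 0.1 (n = 3 per group). Rapamycin under challenge moved the Ccnd1 and Ccnd2 difference by 0.24, with an exact permutation p of 0.7 (n = 3 per group). Rapamycin alone moved Ccnd1 against Ccnd3 by 0.57, with groups that did not overlap and an exact permutation p of 0.1 (n = 3 per group), or 0.3 when adjusted over the 3 pairs. It moved Ccnd1 against Ccnd2 by 0.36, with an exact permutation p of 0.3 (n = 3 per group). No test was made for Ccne1 against Ccne2 or Cdk4 against Cdk6, since Ccne2 and Cdk6 were dim.

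**Figure D3:**
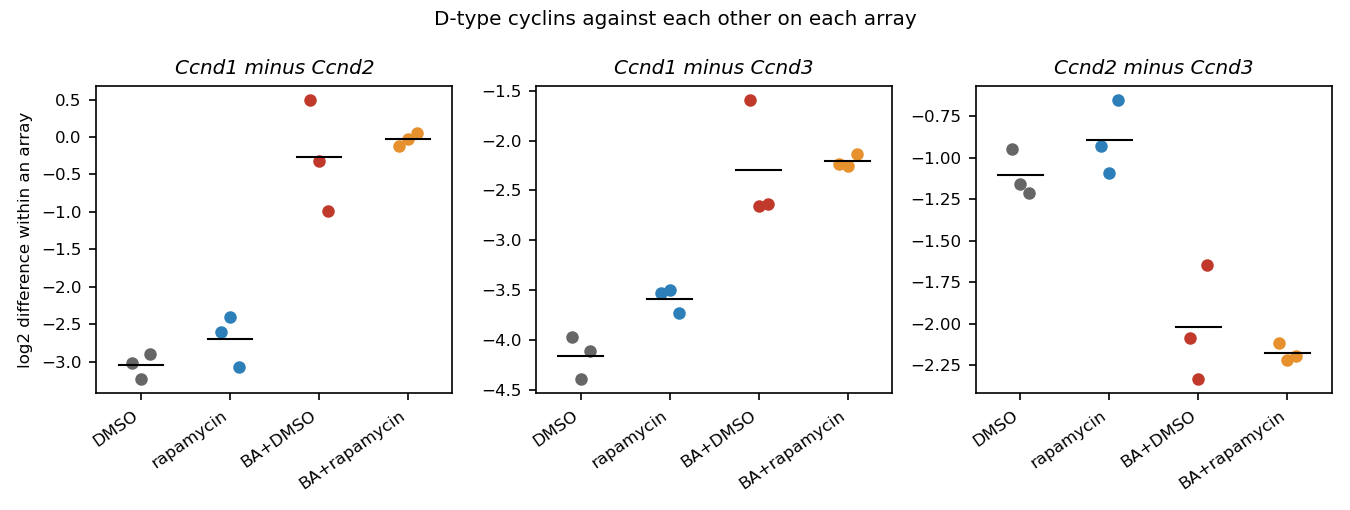
Log2 difference between the probes of 2 D-type cyclins on the same array (vertical axis), with a point for each of the 12 arrays by group and a bar for the group mean. The Ccnd1 minus Ccnd2 values sit between -3.23 and -2.40 in unchallenged samples and between -0.99 and 0.49 in challenged ones.

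Whether rapamycin altered these genes in the challenged aorta was examined by comparing BA+rapamycin with BA+DMSO, which uses the same BA+DMSO samples as the first comparison. None of the 9 member probes was called in limma, and 4 had an unadjusted p under 0.05, as 5585 of all 27801 probes had. Over all tested probes 0.281% were called. The members' log2 differences were all below 0, from -1.05 to -0.26 with a median of -0.47, while the median of all tested probes was -0.01. These 9 probes stand for 6 genes and share the same BA+DMSO samples. With array brightness as a covariate the differences were smaller, from -0.60 for Ccne1 to -0.10 for a Cdk4 probe, and none was called. With estimated array weights, Ccnd1 differed by -0.003.

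Ccne1 differed by -1.05 (95% interval -1.98 to -0.11, adjusted p = 0.219) and Cdk2 by -0.82 (95% interval -1.58 to -0.06, adjusted p = 0.227). The Ccne1 levels of 0.15, -0.21 and -0.17 in BA+rapamycin lay near that of BA+DMSO sample 2 and well below the levels of samples 1 and 3. Cdk2 levels in BA+rapamycin were -1.94, -1.66 and -1.30, and BA+DMSO sample 2, at -1.77, lay within their range.

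Ccnd2 and the brighter Ccnd3 probe were lower in each BA+rapamycin sample than in each BA+DMSO sample. They were 2 of 9 member probes, where 7.57% of all tested probes lay wholly lower and 6.90% wholly higher. The log2 differences were -0.50 for Ccnd2 (adjusted p = 0.266) and -0.35 for Ccnd3 (adjusted p = 0.232), and -0.47 by the other Ccnd3 probe (adjusted p = 0.234). Ccnd1 differed least, by -0.26 (95% interval -0.80 to 0.28, adjusted p = 0.509), and the Cdk4 probes by -0.39 to -0.56 (adjusted p = 0.349 to 0.362).

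Leaving out 1 sample changed the outcome. Without BA+DMSO sample 2, 8 of 9 member probes were called lower, all but Ccnd1, and 22.5% of all tested probes were called lower and 17.4% higher. Ccne1 then differed by -1.68 on the log2 scale (adjusted p = 0.00156), Cdk2 by -1.30 (adjusted p = 0.00274), the Cdk4 probes by -0.72 to -1.09, Ccnd2 by -0.70 and Ccnd1 by -0.49 (adjusted p = 0.0957).

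When BA+DMSO sample 1 or sample 3 was left out instead, no member was called, and 0.252% of all tested probes were called higher and 0.554% lower without sample 1, and 0.0468% and 0.0755% without sample 3. Ccnd1 alone changed sign, to 0.02 without sample 1. Samples 2 and 3 of BA+DMSO were the least alike of that group, and without sample 3 the Ccne1 difference was -0.83 (adjusted p = 0.531). The titles of BA+DMSO samples 2 and 3 carry no date. By its title, sample 1 of BA+DMSO shares a date with a BA+rapamycin sample. Within that pair Ccne1 differed by -1.66, Cdk2 by -1.76 and Ccnd1 by -0.87.

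**Figure D4:**
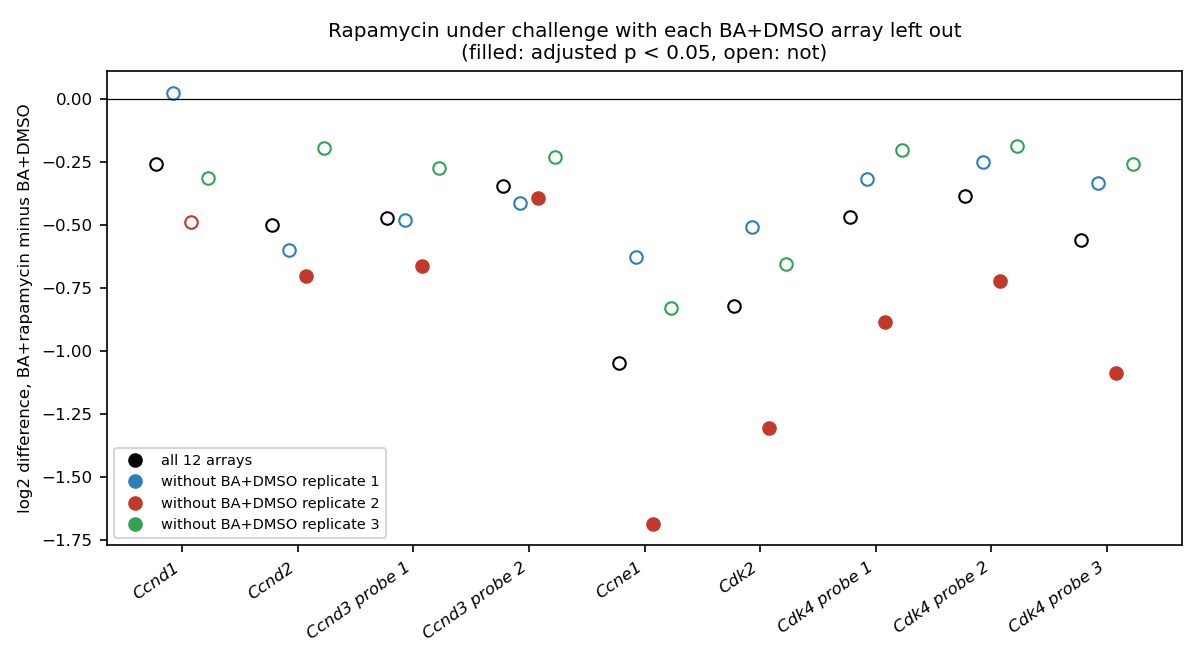
Log2 difference of BA+rapamycin minus BA+DMSO (vertical axis) for the 9 tested member probes, with all 12 arrays and with each BA+DMSO array left out, filled where the adjusted p is under 0.05. Only the points without BA+DMSO sample 2 are filled, for 8 of 9 probes.

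Rapamycin alone was compared with DMSO in unchallenged mice. No member was called in limma, and none had an unadjusted p under 0.05, as 1187 of all 27801 probes had, while 0.0036% of all tested probes were called. Ccnd1 was higher in each rapamycin sample than in each DMSO sample (log2 difference 0.45, 95% interval -0.09 to 0.99, unadjusted p of the limma fit 0.0955, adjusted p = 1), and the brighter Ccnd3 probe was lower in each (log2 difference -0.12, adjusted p = 1). Over all tested probes, 10.8% lay wholly higher and 10.7% wholly lower.

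The other tested members differed by -0.10 to 0.15 between rapamycin and DMSO. Samples 2 and 3 of both groups share a date in their titles, and over these Ccnd1 differed by 0.54. On the slide that holds the DMSO samples, the single rapamycin sample gave a Ccnd1 difference of 0.47 from the DMSO mean, a value with no spread of its own for that arm and given with no test. With estimated array weights, Ccnd1 was called higher (log2 difference 0.54, adjusted p = 0.0330), where 2.79% of all tested probes were called higher and 2.64% lower.

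Whether rapamycin acted differently with and without challenge was tested by the interaction term. None of the 9 member probes was called, 0% of all tested probes were called, and none of the members had an unadjusted p under 0.05, as 1702 of all 27801 probes had. Their interaction estimates were all below 0, from -1.20 for Ccne1 (95% interval -2.52 to 0.12, adjusted p = 0.737) to -0.22 for the brighter Ccnd3 probe. With array brightness as a covariate, the 3 Cdk4 estimates turned to 0.06 to 0.10 (adjusted p = 0.9999 for each). Without BA+DMSO sample 2, Ccne1, Cdk2 and 2 Cdk4 probes were called lower, and 7.08% of all tested probes were called lower and 3.92% higher.

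Across the groups, Ccnd1 and Ccne1 both rose in the order DMSO, rapamycin, BA+rapamycin and BA+DMSO by group mean. For Ccne1 the means were -2.71 ± 0.19, -2.56 ± 0.12, -0.08 ± 0.20 and 0.97 ± 1.12 (SD, n = 3 each), and for Ccnd1 1.14 ± 0.24, 1.59 ± 0.17, 2.76 ± 0.09 and 3.02 ± 0.52. The step between rapamycin and BA+rapamycin passed the test for both genes, and the steps between DMSO and rapamycin and between BA+rapamycin and BA+DMSO did not. Ccnd2 was lowest in BA+rapamycin, with 2.79 ± 0.06, followed by 3.29 ± 0.54 in BA+DMSO, 4.19 ± 0.15 in DMSO and 4.28 ± 0.18 in rapamycin.

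The members varied together in 2 ways. Over the 12 arrays, Ccnd1 and Ccne1 had a Pearson correlation of 0.959 and Ccnd1 and Ccnd2 one of -0.790. After the group means were subtracted, Ccne1 correlated with the Cdk4 probes at 0.931 to 0.932 and with Cdk2 at 0.855. Ccnd1 then correlated with Ccne1 at 0.752, with Cdk2 at 0.776 and with Ccnd2 at 0.003, and Ccnd2 with the Cdk4 probes at 0.747 to 0.763. These within-group values rest mainly on the 3 BA+DMSO arrays, since the SD of Ccne1 was 1.12 there and 0.12 to 0.20 in the other groups, and that of the brightest Cdk4 probe 0.58 against 0.08 to 0.17. These values describe 12 arrays that fall into 4 groups and share 1 scaling. The 3 Cdk4 probes correlated with each other at 0.953 to 0.984 over the 12 arrays.

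The probes whose level followed a member most closely over the 12 arrays, among other genes, were Pnp2 and Ptpn6 for Ccnd1 (correlations 0.989 and 0.987), and Tnfaip8l1 and Trip13 for Ccne1 (0.991 and 0.989). For Ccnd2 they were Surf1 and Map1lc3b (0.992 and 0.991), for the brighter Ccnd3 probe Mrpl4 and Ndufs6 (0.970 and 0.949), for Cdk2 Nasp and Tspan6 (0.947 and 0.946), and for the brightest Cdk4 probe Ssr2 and Rer1 (0.983 and 0.982). After the group means were subtracted, the correlations of these pairs ranged from 0.874 for Ndufs6 to 0.988 for Ssr2. The pairs were picked as the highest among all tested probes with a gene symbol, so the size of these values is not read as a result.

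The genes around the G1 machinery were described by lists, with 1 probe per gene. For challenge in vehicle mice, each list's count stands against 9.65% of all tested probes called higher and 10.8% called lower, and nothing is read from a count near these shares. Of the 7 CDK inhibitors, all tested, 2 were higher and 1 was lower with challenge in vehicle mice. Cdkn2a encodes the Cdk4 and Cdk6 inhibitor p16 and, in another reading frame, p19Arf. It was higher by at least 4.53-fold, a bound, as it was not well above background in any DMSO sample. Its 1 probe was not assigned to either transcript. It passed the brightness filter only through a challenged group, so it had to be higher there; among the other 6 inhibitors, 1 was higher and 1 lower. Cdkn2c, the inhibitor p18, rose by 0.96 on the log2 scale (adjusted p = 0.0445), and Cdkn1b, the inhibitor p27 of cyclin E and Cdk2, fell by 0.70 on the log2 scale (adjusted p = 0.00762).

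Among 12 tested genes for the retinoblastoma family, E2F and their DP partners, 3 were higher and 2 lower. E2f1 rose by 2.24 and E2f2 by 2.20 on the log2 scale, and Rbl2 and Tfdp2 fell by 0.83 and 0.81. Of 21 tested S-phase genes that E2F activates, 15 were higher and none lower, and 14 of the 19 that passed the filter in both challenged and unchallenged groups were higher; Tk1, for thymidine kinase, rose by 3.80 and Uhrf1 by 3.72.

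The 5 tested cyclins and kinases of S, G2 and M phase were called higher, with Ccnb1 up by 4.93 on the log2 scale and Cdk1 at least 11.3-fold higher. Ccnb1, Ccnf and Cdk1 passed the filter only through challenged groups and had to differ, which leaves 2 genes of this list. The proliferation markers Mki67, Birc5 and Plk1, well above background on all 12 arrays, were higher as well. Top2a, well above background on 2 of 3 BA+DMSO and on no DMSO array, was at least 14.9-fold higher and was tested only through a challenged group. Of 26 tested cyclins and CDKs of transcription and other roles, 1 was higher (Cdk14, 0.71) and 2 were lower (Ccni, which fell by 1.09, and Cdk13, which fell by 0.57).

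Of 13 genes for the breakdown of G1 cyclins and p27, Btrc alone was called, and it fell by 1.44. Of 7 tested genes for CDK-activating kinase and the Cdc25 and Wee1 enzymes, Pkmyt1 alone was called, with a rise of 1.36. Among 16 tested genes of mitogen and mTOR signalling, Eif4ebp1 rose by 0.66, and 5 genes fell, led by Jun with 1.90 and Mtor with 1.27.

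In rapamycin-treated mice, challenge gave 5 of 5 higher for the S, G2 and M cyclins and Cdk1, 9 higher and 1 lower of 21 S-phase genes, 4 of 4 higher for proliferation markers, and 1 higher and 2 lower of 7 CDK inhibitors, where 18.9% of all tested probes were called higher and 22.9% lower. Among genes that passed the filter in both challenged and unchallenged groups, the counts were 2 of 2, 8 higher and 1 lower of 19, 3 of 3, and 0 higher and 2 lower of 6. The calls were 3 higher and 3 lower of 12 for the retinoblastoma, E2F and DP list, 1 and 3 of 7 for the CDK-activating and Cdc25-Wee1 enzymes, 1 and 3 of 13 for cyclin turnover, 2 and 4 of 26 for transcriptional and other cyclins and CDKs, and 1 and 5 of 16 for mitogen and mTOR signalling. Uhrf1 rose by 3.47 and Pola1, for a DNA polymerase, fell by 1.42 on the log2 scale. Cdkn1c, the inhibitor p57, fell by 1.28. No gene of these 9 lists was called by limma for the interaction or for either comparison of rapamycin with vehicle. The median log2 difference for rapamycin under challenge was -1.39 over the S, G2 and M cyclins and Cdk1, -1.24 over the proliferation markers, -1.05 over the S-phase genes, -0.68 over the CDK-activating and Cdc25-Wee1 enzymes, -0.65 over the CDK inhibitors and -0.33 over the retinoblastoma, E2F and DP list. It was -0.16 over cyclin turnover and 0.03 over both the transcriptional cyclins and the mitogen and mTOR list, against -0.01 over all tested probes.

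The summed level of the 4 tested proliferation markers was higher in every challenged than in every unchallenged sample, as Ccne1 was. It was 1.41 to 1.70 in DMSO, 0.72 to 0.96 in rapamycin and 10.8 to 13.98 in BA+rapamycin, in multiples of the 75th percentile signal. In BA+DMSO it was 57.0, 12.02 and 33.3, with sample 2 within the range of BA+rapamycin, while the Ccne1 level of that sample, -0.31, lay below the BA+rapamycin range. Rapamycin samples lay wholly below DMSO samples in the marker sum, where Ccne1 differed by 0.15 in the other direction. The relation of the marker sum to the members, and its part in the member results, were not tested. Top2a, one of the 4, was well above background on 5 of 12 arrays.

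**Figure D5:**
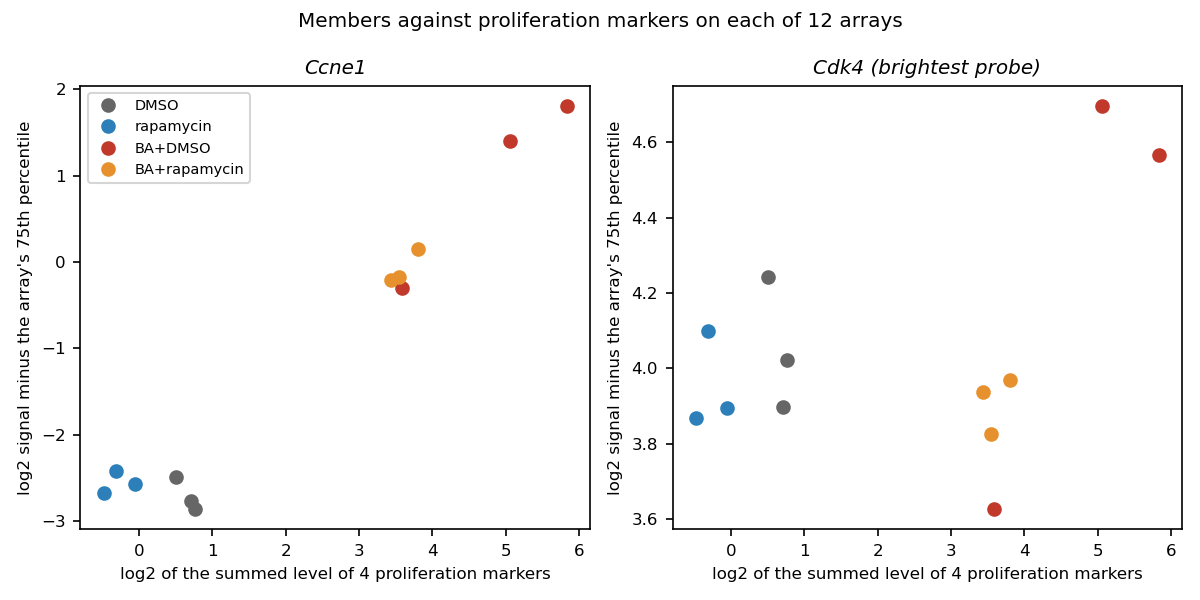
Level of Ccne1 (left) and of the brightest Cdk4 probe (right) on each array against the log2 of the summed level of 4 proliferation markers (horizontal axis), by group. BA+DMSO sample 2 sits at a marker sum of 12.02 beside the BA+rapamycin samples, and the other BA+DMSO samples sit at 33.3 and 57.0.

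Markers of some other cell types were higher with challenge. All 6 macrophage markers were called higher with challenge in vehicle mice, and their summed level was 20.5 to 35.4 in DMSO against 61.7 to 134 in BA+DMSO. All 3 erythroid markers were called higher, with a sum of 18.0 to 84.0 in DMSO and 114 to 234 in BA+DMSO. Of the smooth muscle markers 1 of 7 was lower, and their sum was 2844 to 3063 in DMSO and 2455 to 4818 in BA+DMSO. Of the other lists, with 9.65% of all tested probes called higher and 10.8% lower, 1 of 4 neutrophil, 1 of 3 lymphocyte, 1 of 5 endothelial, 2 of 5 fibroblast, 1 of 4 adipocyte (Ucp1, which passed the filter only through a challenged group) and 0 of 4 striated muscle markers were higher, and none was lower. The endothelial sum was 51.0 to 64.4 in DMSO and 76.6 to 98.5 in BA+DMSO. The lymphocyte sum was 1.00 to 1.30 in DMSO and 1.47 to 2.55 in BA+DMSO. The value of 2.55 was that of sample 2, where only 1 of the 3 tested lymphocyte markers was well above background. All 3 were on samples 1 and 3, at 2.00 and 1.47. Cd3d and Cd79a, of these 3 markers, passed the filter only through unchallenged groups, so no gain of lymphocytes is read from this sum. The neutrophil, fibroblast, adipocyte and striated muscle sums overlapped between these groups.

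With challenge under rapamycin, with 18.9% of all tested probes called higher and 22.9% lower, 5 of 6 macrophage markers were higher, with a sum of 32.3 to 39.6 in rapamycin and 86.0 to 90.5 in BA+rapamycin. The erythroid sum was 80.3 to 186 in rapamycin and 308 to 350 in BA+rapamycin, with 2 of 3 markers called higher. The fibroblast sum was 767 to 779 in rapamycin and 1094 to 1257 in BA+rapamycin, with 2 of 5 markers called higher. The neutrophil sum was 202 to 242 in rapamycin and 502 to 656 in BA+rapamycin, with 1 of 4 higher. It rests mainly on the Csf3r probe, whose DMSO mean was 7.80 on the log2 scale, against -1.09 or lower for the other tested neutrophil probes. The smooth muscle sum was 2576 to 3035 in rapamycin and 3471 to 4510 in BA+rapamycin, with 1 of 7 higher and 2 lower. The striated muscle sum was 51.2 to 60.3 in rapamycin and 16.1 to 30.6 in BA+rapamycin, with 1 of 4 lower. Of the remaining markers, 1 of 5 endothelial was higher and 2 lower, 1 of 3 lymphocyte was higher, and 1 of 4 adipocyte was lower. The erythroid sum was also wholly higher in BA+rapamycin than in BA+DMSO, with none of its 3 markers called. The part of these cells in the member differences was not tested.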

How the data were processed

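The deposited scanner files hold 1-colour Agilent data for 12 aorta samples. The processed signal is an intensity on a linear scale, from which the scanner software subtracted background per the file headers; the mean and background signals of each spot are also linear intensities. Flags per spot (0 or 1, another unit than intensity) are deposited with them. Per the labels the tool was Feature Extraction 9.5.1.1, while the file headers name 10.7.1.1. Probe positions are on mm9. The series' deposited matrix is an intensity table whose columns correlated at 0.9999 or above with quantile-normalized processed signals; it served as an alternative.

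Processed signals were log2 transformed, spots with an outlier flag dropped, spots of a probe averaged, and each array's 75th percentile subtracted. A probe was tested if at least 1 group had it well above background on each of its 3 arrays. All 12 arrays entered 1 limma 3.58.1 model (R 4.3.3) with 4 group means, two-sided tests and Benjamini-Hochberg adjustment over 27801 probes, tested on simulated data. Each pair of D-type cyclins was compared by an exact permutation test. Python 3.11.15 with matplotlib 3.10.9 drew the figures.

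The text names every member probe. From each list it names up to 2 called genes with the largest rise and up to 2 with the largest fall, and for each member the 2 probes of other genes with the highest correlation; remaining called genes of short lists were named after their values were seen. Members, lists and markers were chosen with earlier results of these data known. Groups came from the treatment labels, and replicates were numbered in deposition order. Nothing in the labels says that the samples came from separate mice, so p-values measure the spread between these samples. The number of arrays limits the precision. DMSO and rapamycin samples that share a number in their titles did not deviate together (correlation -0.07 over 27801 probes), so they were not treated as pairs. The alternatives covered normalization, background, filters, slide, brightness, array weights, the study's rule (unadjusted p under 0.01 and fold over 4 or under 0.25) and each array left out.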

Additional observations from a re-analysis of the deposited data

How the results depend on the processing

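The member calls depended on a few settings, and the counts here are out of the 9 member probes that passed the main filter. With all arrays, challenge called 3 member probes; this count was 0 with slide as a block, 6 with a brightness covariate, 4 with normexp (Cdk2 gained), 2 with no filter and 2 with only the groups compared (Ccnd2 lost in both), 1 with array weights and 1 under the study's rule, and 2 to 7 with each array left out. Over all probes, challenge called 15 with slide as a block, 5086 with a brightness covariate and 6577 with normexp. It called 4257 with no filter, 1244 with only the groups compared, 112 with array weights and 697 under the study's rule. Rapamycin under challenge called 0 to 8 members with each array left out, 8 only without BA+DMSO sample 2. Leaving that sample out with quantile normalization, chosen after seeing the data, gave 7 calls for challenge, 6 for rapamycin under challenge and 4 for the interaction. Over all 27801 tested probes, that setting called 7012, 10511 and 2922. Rapamycin alone called 1 with array weights and 0 otherwise, and 0 with the replicate block over samples 2 and 3, where the block changed no member call. Challenge under rapamycin called 4, against 2 on the second slide, 1 with a brightness covariate (the Ccnd1, Ccnd2 and Ccnd3 calls ended), 1 under the study's rule, 5 with normexp and 5 with array weights (the brighter Ccnd3 probe gained), 3 with cyclic loess and 3 with slide as a block (the dimmer Ccnd3 probe lost), and 3 to 4 with each array left out. Over all probes, challenge under rapamycin called 3268 on the second slide, 1786 with a brightness covariate and 1428 under the study's rule. It called 17357 with normexp, 18256 with array weights, 10932 with cyclic loess and 7923 with slide as a block. The interaction called 0 to 4 members with each array left out, 4 only without BA+DMSO sample 2. The causes were not tested, also for the second slide alone, which has fewer samples.

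Across 45 differences of single members, 1139 of 1206 alternative values kept their side of the threshold, 29 lost a call, 38 gained one and none that was called changed sign. Ccne1 kept its call for challenge in 25 of 26 alternatives and Ccnd1 in 23, while Ccnd2 kept it in 16. Over all probes the calls ranged from 15 to 10574 for challenge (5697 with the settings used), from 0 to 11092 for rapamycin under challenge (78), from 0 to 1512 for rapamycin alone (1), from 1428 to 29650 for challenge under rapamycin (11602) and from 0 to 3058 for the interaction (0). With the percentile taken over detected probes, rapamycin under challenge called 473 probes, 69.1% of them higher, against 25.6% of 78; the median over all probes moved to 0.13 from -0.01, and all 9 members stayed below 0. With a brightness covariate, 61.9% of 312 calls for rapamycin under challenge were higher, and 17.9% of 223 with quantile normalization. For challenge under rapamycin, 56.8% of calls were higher with the percentile over detected probes and 59.2% with normexp, against 45.2%. The share was 79.8% with no filter, 71.9% with a brightness covariate, 70.4% under the study's rule and 39.2% with quantile normalization. With normexp the median over all probes was 0.14 against -0.08. Signal over background limits the dim Ccne1 probe, Ccne2 and Cdk6, for which no difference is given. With no filter, the dim Ccne1 probe and Cdk6 also passed for challenge (limma adjusted p = 0.0429 and 0.0442). The dim Ccne1 probe and Ccne2 passed for challenge under rapamycin (limma adjusted p = 0.00812 each). Nothing is read from these calls, which are not in the counts above.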
